A study of Mus musculus with 12 samples.

Results

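The genes described here are 6 outputs of the circadian clock that can be read in liver RNA, namely Usp2, Ccrn4l, Upp2, Spon2, Wee1 and Cdkn1a. They were taken by symbol from a table of 23849 gene symbols. They had been selected on the difference between the 2 collection times in these same livers, so their change over time is given as a description. Where it is set against the threshold used for all genes, nothing is drawn from it. All 6 were among the 9806 genes whose mean over the livers reached 1 FPKM (fragments scaled by transcript length and by the mapped reads of the library). The livers came from 12 male C57BL/6J mice, 8 weeks old according to the series' design text, and all animals, the controls included, were fed a high-fat diet (HFD). Libramed, a gel-forming blend of fibers that the methods call Policaptil Gel Retard, or its vehicle, drinking water, was given by daily gavage for 2 weeks. Livers were collected at ZT0 or ZT12, with 3 mice in each of the 4 groups (vehicle at ZT0, vehicle at ZT12, Libramed at ZT0 and Libramed at ZT12). Zeitgeber time (ZT) counts hours from lights on, and in these nocturnal animals ZT0 ends and ZT12 begins the active phase. The scheduled gavage fell shortly before ZT12, so time of day and time since gavage cannot be told apart. With only these time points, neither the peak of a rhythm nor its full amplitude can be read, and "amplitude" below means the ratio of the mean FPKM at these times.

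In the liver clock, CLOCK and BMAL1 (the product of Arntl) switch on genes that carry E-boxes, among them the PER and CRY repressors, the REV-ERB repressors and activators such as DBP. These regulators drive outputs through E-boxes, D-boxes bound by DBP and its relatives, and elements bound by REV-ERB and ROR. Feeding also sets the phase of many liver outputs. The 6 genes act in unrelated processes. Usp2 encodes a protease that removes ubiquitin from proteins, several clock proteins among them. Ccrn4l, now named Noct, encodes nocturnin, which was first described as a deadenylase related to yeast CCR4 and later as a phosphatase of NADP(H). Upp2 encodes a uridine phosphorylase, which splits uridine into uracil and ribose phosphate. Spon2 encodes the secreted matrix protein spondin 2 (mindin). Wee1 encodes the kinase that holds CDK1 inactive before mitosis, and Cdkn1a encodes p21, an inhibitor of cyclin-dependent kinases and a well-known target of p53.

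In the mm10 build, the GENCODE annotation places Usp2 (ENSMUSG00000032010.15) on the plus strand at chr9:44067021-44095627 and Ccrn4l (ENSMUSG00000023087.15) on the plus strand at chr3:51224447-51251644. Upp2 (ENSMUSG00000026839.17) lies on the plus strand at chr2:58567298-58792971 and Spon2 (ENSMUSG00000037379.7) on the minus strand at chr5:33198184-33218455. Wee1 (ENSMUSG00000031016.9) is at chr7:110122046-110143286 and Cdkn1a (ENSMUSG00000023067.14) at chr17:29090976-29100727, both on the plus strand. All are protein coding and lie on separate chromosomes. Wee1 lies within the antisense gene 1600010M07Rik, which was listed between 0 and 0.878 FPKM, the highest value being in vehicle ZT12 replicate 1. Shorter annotated transcripts of the opposite strand overlap Usp2 and Cdkn1a. The methods name a kit that keeps the strand and the labels one that does not, so reads of such partners may not have been separated. In the 3′ untranslated region of the transcript with the longest coding sequence, the AU-rich word ATTTA occurs 4 times in each of Ccrn4l, Upp2 and Cdkn1a, 1 time in each of Usp2 and Spon2, and not in Wee1. The median over 9050 tested genes was 1, and 31.2% of them had at least 3.

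The promoter sequences of 4 of the genes are shown because members that move together over the day are commonly driven by short clock elements near the start site. RefSeq (GRCm38.p6) gave 6 windows for these 4 genes, running from 250 bases before to 50 bases after a transcription start, Upp2 and Cdkn1a having 2 starts each. The 250 bases before a start are printed for 1 start of each gene, 5′ to 3′ on the plus strand. Capitals mark a TATA box in Upp2 and an element for p53 in Cdkn1a.
Usp2, chr9:44084670-44084919: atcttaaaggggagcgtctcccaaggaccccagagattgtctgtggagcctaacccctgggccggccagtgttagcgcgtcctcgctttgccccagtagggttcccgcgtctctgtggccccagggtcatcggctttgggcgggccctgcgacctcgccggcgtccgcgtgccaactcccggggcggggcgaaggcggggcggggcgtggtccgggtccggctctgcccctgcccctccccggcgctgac
Ccrn4l, chr3:51224197-51224446: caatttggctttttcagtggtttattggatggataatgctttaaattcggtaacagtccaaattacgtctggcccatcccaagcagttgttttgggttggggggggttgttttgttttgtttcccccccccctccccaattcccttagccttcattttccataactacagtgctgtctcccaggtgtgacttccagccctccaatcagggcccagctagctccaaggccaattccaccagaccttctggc
Upp2, chr2:58754934-58755183: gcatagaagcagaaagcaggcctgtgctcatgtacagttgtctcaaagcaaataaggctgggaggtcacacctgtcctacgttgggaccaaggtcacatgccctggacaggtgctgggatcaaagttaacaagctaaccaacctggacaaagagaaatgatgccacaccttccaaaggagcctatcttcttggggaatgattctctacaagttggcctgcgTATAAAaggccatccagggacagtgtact
Cdkn1a, chr17:29090729-29090978: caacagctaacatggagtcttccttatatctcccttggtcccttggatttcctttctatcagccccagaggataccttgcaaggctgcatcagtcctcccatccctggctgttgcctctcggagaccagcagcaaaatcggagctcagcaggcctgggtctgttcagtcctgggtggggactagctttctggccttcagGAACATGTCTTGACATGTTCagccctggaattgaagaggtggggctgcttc
None of the 6 windows held an E-box (CACGTG), a D-box (TTATGTAA or TTACGTAA), a REV-ERB/ROR element (TAGGTCA) or a cAMP response element (TGACGTCA) on either strand. Of 32851 windows of the same length, 7.15% held this E-box, 1.06% a D-box, 2.61% the REV-ERB/ROR element and 1.79% the cAMP response element. The absence of these letters says nothing of sites elsewhere in the genes, and the printed Usp2 and Upp2 windows belong to starts inside those genes, not to their first annotated exon. The other two patterns were searched for after the sequences had been seen. The Upp2 window has TATAAA from −29 to −24, counted from the start, as 13.6% of all windows do somewhere on either strand. The Cdkn1a window has a p53 element from −51 to −32, with at most 1 mismatch to the consensus, and 29 windows (0.0883%) held such an element. The 6 windows differ in base composition, and Upp2 has both ends of the range, with 49.2% G and C in the printed sequence and 73.2% in its other window, against a median of 52.4% over all windows.

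Of the 6 genes, 4 were higher at ZT12 in both treatments (Usp2, Ccrn4l, Upp2 and Wee1) and Spon2 was higher at ZT0 in both. Cdkn1a did not behave as a strongly rhythmic gene in these livers, since its mean was higher at ZT0 with vehicle and at ZT12 with Libramed. With vehicle, the 3 mice at ZT12 did not overlap the 3 at ZT0 for 5 of the 6 genes, Cdkn1a being the exception, where 33.2% of all tested genes did not overlap. With Libramed, the groups did not overlap for 6 of 6, where 34.9% of all genes did not. In limma, 4 of the genes passed a Benjamini-Hochberg adjusted p of 0.05 upward and 1 downward with vehicle, where 5.62% of all genes passed upward and 4.78% downward, 10.4% in all. With Libramed, 5 passed upward and 1 downward, where 7% and 5.36% of all genes did so, 12.4% in all. Since the genes had been picked on this contrast, these counts carry no further weight.

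**Figure D1:**
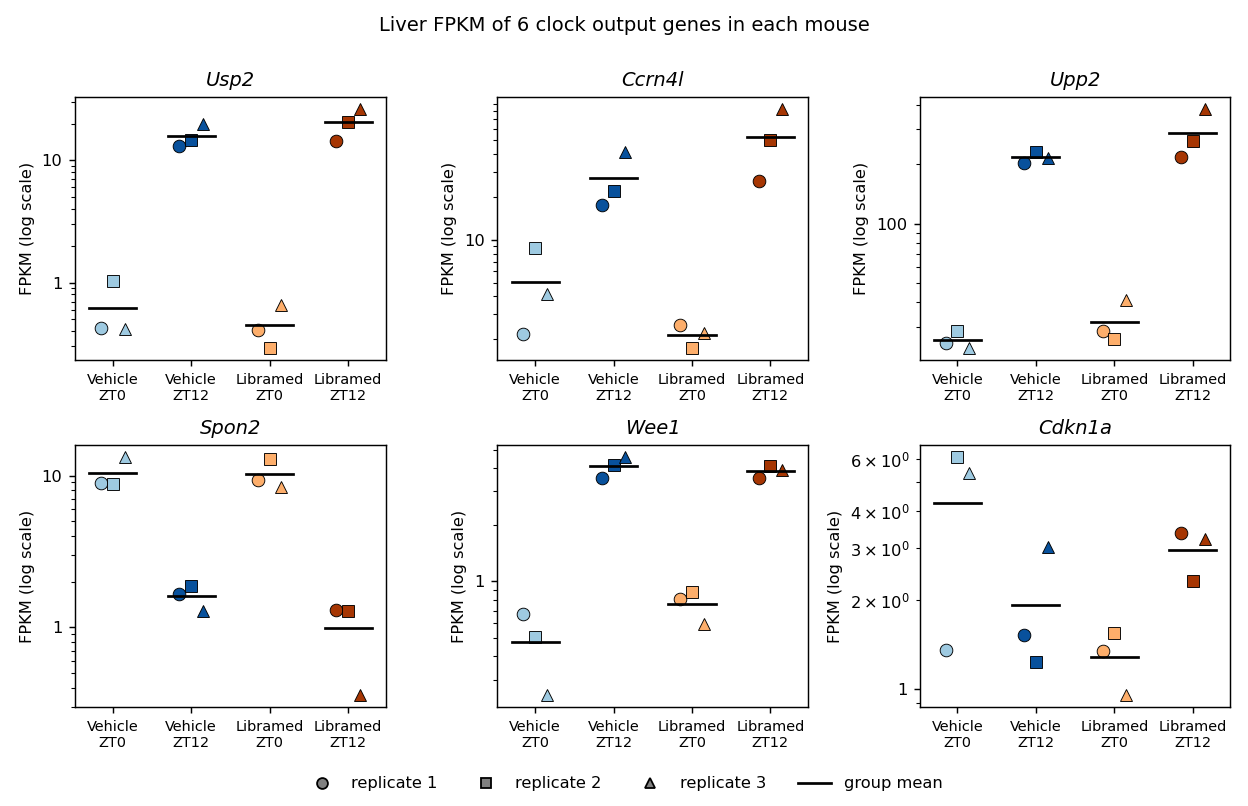
FPKM of each gene (log axis) in each of the 12 mice by group, with symbols for the replicate number and a bar for the mean of 3 mice. The ZT12 mice lie above the ZT0 mice for Usp2, Ccrn4l, Upp2 and Wee1 and below them for Spon2 in both treatments, while the vehicle groups overlap for Cdkn1a.

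Usp2 had the largest ratio between the times with either treatment. With vehicle, it measured 0.425, 1.02 and 0.419 FPKM in replicates 1 to 3 at ZT0 and 13.2, 14.8 and 19.9 FPKM at ZT12. With Libramed, the values were 0.408, 0.292 and 0.656 FPKM at ZT0 and 14.4, 20.7 and 26.3 FPKM at ZT12. All ZT12 livers were thus more than 10 FPKM above all ZT0 livers, and the treatments overlapped at both times. The vehicle mean was 0.623 ± 0.348 FPKM at ZT0 and 16.0 ± 3.53 FPKM at ZT12 (SD, n = 3), a ratio of 25.6. The Libramed mean was 0.452 ± 0.186 FPKM at ZT0 and 20.4 ± 5.94 FPKM at ZT12, a ratio of 45.3. The ratios rest on values under or near 1 FPKM at ZT0, where reads are few and their number is unknown. On the log2(FPKM + 1) scale, which compresses changes of low values, the change was 3.39 (SE 0.20) with vehicle and 3.85 (SE 0.21) with Libramed, in rank 6 and 5 of the 9806 genes by size.

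Ccrn4l was the member whose amplitude differed most in size among those that kept their direction. In vehicle livers it measured 2.19, 8.69 and 4.17 FPKM at ZT0 and 17.5, 22.1 and 41.4 FPKM at ZT12. In Libramed livers it measured 2.53, 1.74 and 2.21 FPKM at ZT0 and 25.7, 49.6 and 82.3 FPKM at ZT12. Vehicle ZT0 replicate 2 was the highest liver at ZT0, the Libramed ZT0 livers were close together, and the ZT12 livers spread widely in both treatments. The ratio between the times was 5.37 with vehicle and 24.3 with Libramed, and the log2 change was 2.27 (SE 0.45) and 3.94 (SE 0.37), ranks 37 and 3 by size. Omission of single livers moved the vehicle change between 1.89 (without ZT0 replicate 1) and 2.69. It did not pass the adjusted threshold without ZT0 replicate 1 or 3 or ZT12 replicate 2 or 3.

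Upp2 was the most abundant of the 6 genes in every group and, with vehicle, the least variable. It stood at 24.8, 28.5 and 23.4 FPKM in vehicle ZT0 livers and at 204, 232 and 214 FPKM in vehicle ZT12 livers. In Libramed livers it stood at 28.3, 26.1 and 40.7 FPKM at ZT0 and at 218, 263 and 381 FPKM at ZT12. The ratio was 8.48 with vehicle and 9.06 with Libramed, and the coefficient of variation between vehicle mice was 10.4% at ZT0 and 6.59% at ZT12. The log2 change was 3.04 (SE 0.10) and 3.13 (SE 0.24), ranks 10 and 11.

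Spon2 ran opposite to these genes. In vehicle livers it measured 8.88, 8.79 and 13.3 FPKM at ZT0 and 1.66, 1.88 and 1.28 FPKM at ZT12. In Libramed livers it measured 9.31, 12.8 and 8.47 FPKM at ZT0 and 1.31, 1.29 and 0.356 FPKM at ZT12. Every ZT0 liver was above every ZT12 liver, with 1 Libramed liver, ZT12 replicate 3, well under the rest. The mean was 6.43 times higher at ZT0 than at ZT12 with vehicle and 10.4 times with Libramed, and the log2 change to ZT12 was −2.10 (SE 0.17) and −2.52 (SE 0.24). Endothelial markers (6 genes) summed to between 24.8 and 34.4 FPKM in vehicle livers at ZT0 and between 12.7 and 21.9 FPKM at ZT12, and in Libramed livers to 32.3 or more at ZT0 and 21.9 or less at ZT12. Stellate cell markers (5 genes) summed to 6.81 to 9.39 and 5.30 to 6.88 FPKM with vehicle and to 8.90 to 14.9 and 5.16 to 6.96 FPKM with Libramed. The endothelial ranges did not overlap between the times in either treatment, whereas the stellate ranges overlapped with vehicle. Most of the endothelial sum came from Clec4g, with means of 22.5 and 12.9 FPKM at ZT0 and ZT12 with vehicle and 26.1 and 15.2 FPKM with Libramed. Lyve1 with Libramed averaged 0.328 FPKM at ZT0 and 0.344 FPKM at ZT12. Of 5 endothelial genes tested, 0 passed the adjustment between the times with vehicle, and 2 fell with Libramed. Of 4 stellate genes tested, 0 passed with vehicle and 3 fell with Libramed. Among all tested genes, 4.78% fell with vehicle and 5.36% with Libramed. Kupffer cell markers (9 genes) overlapped between the times with Libramed, at 39.2 to 63.4 FPKM at ZT0 and 42.1 to 64.6 FPKM at ZT12, and with vehicle, at 68.1 to 78.8 and 33.3 to 89.1 FPKM. None of the endothelial, stellate or Kupffer genes in the table was listed at 0, and their part in the Spon2 values was not tested. In bulk liver RNA, fewer cells of a type and less RNA per cell cannot be told apart.

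Wee1 was low in abundance, and uniform at ZT12. It measured 0.668, 0.508 and 0.248 FPKM in vehicle ZT0 livers and 3.52, 4.17 and 4.60 FPKM in vehicle ZT12 livers. With Libramed it measured 0.804, 0.876 and 0.596 FPKM at ZT0 and 3.55, 4.08 and 3.91 FPKM at ZT12. The ZT12 values spanned a narrow range in both treatments, and the Libramed mean at ZT0 lay above the vehicle mean. The ratio was 8.62 with vehicle and 5.07 with Libramed, so that among the 5 genes with the same direction in both treatments Wee1 alone had the smaller amplitude with Libramed. The log2 change was 1.79 (SE 0.14) and 1.46 (SE 0.10).

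Cdkn1a was the exception. Vehicle livers measured 1.35, 6.11 and 5.36 FPKM at ZT0 and 1.53, 1.23 and 3.02 FPKM at ZT12. Libramed livers measured 1.35, 1.54 and 0.952 FPKM at ZT0 and 3.36, 2.31 and 3.21 FPKM at ZT12. Replicates 2 and 3 of vehicle at ZT0 were the highest of the 12 livers, whereas replicate 1 of that group was as low as the Libramed ZT0 livers. The mean was 2.22 times higher at ZT0 than at ZT12 with vehicle and 2.31 times higher at ZT12 than at ZT0 with Libramed. The log2 change was −0.74 (SE 0.44, 95% interval −1.79 to 0.30) with vehicle and 0.79 (SE 0.15, 95% interval 0.45 to 1.14) with Libramed. Without vehicle ZT0 replicate 1 the vehicle change was −1.25 and passed the adjusted threshold, and without replicate 2 of that group it was −0.45. The Libramed change did not pass the adjusted threshold without ZT0 replicate 3 (0.69) or ZT12 replicate 3 (0.75).

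**Figure D2:**
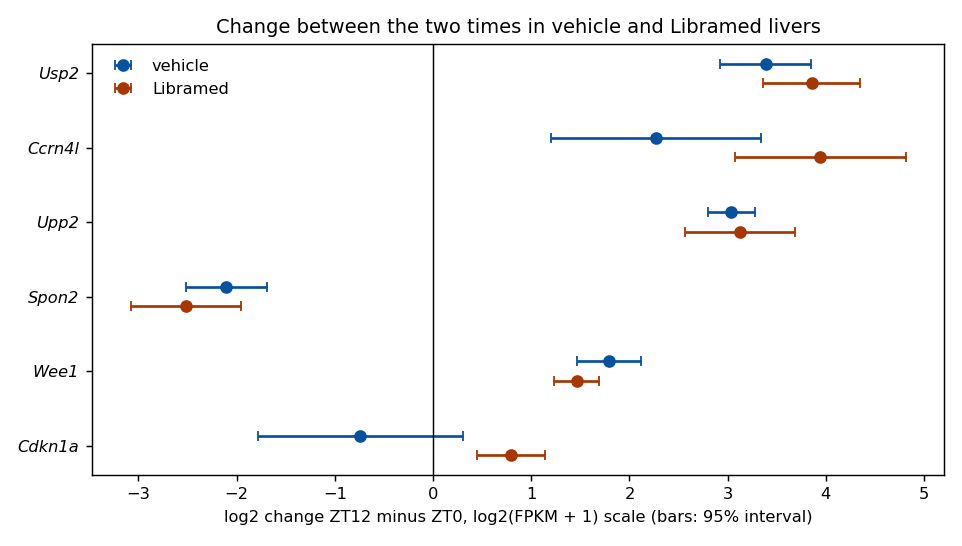
Change of each gene from ZT0 to ZT12 on the log2(FPKM + 1) scale (horizontal axis) in vehicle and Libramed livers, with 95% intervals from limma over 3 mice against 3. The points lie at 3.39 and 3.85 for Usp2, at 2.27 and 3.94 for Ccrn4l and on opposite sides of 0 for Cdkn1a.

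Because FPKM allows for transcript length, levels can be set side by side between genes. In vehicle livers at ZT12 the order of the means was Upp2 (216 FPKM), Ccrn4l (27.0), Usp2 (16.0), Wee1 (4.09), Cdkn1a (1.93) and Spon2 (1.61). Ccrn4l overlapped Usp2, and Cdkn1a overlapped Spon2. At ZT0 the order was Upp2 (25.5), Spon2 (10.3), Ccrn4l (5.02), Cdkn1a (4.27), Usp2 (0.623) and Wee1 (0.475), where Ccrn4l overlapped Cdkn1a and Usp2 overlapped Wee1. The ZT12 order in Libramed livers had the same genes in the first 5 places, with means of 287, 52.6, 20.4, 3.85 and 2.96 FPKM and Spon2 last at 0.985, and Ccrn4l again overlapped Usp2. At ZT0 with Libramed the means were 31.7 for Upp2, 10.2 for Spon2, 2.16 for Ccrn4l, 1.28 for Cdkn1a, 0.759 for Wee1 and 0.452 for Usp2, with overlap between Wee1 and Usp2.

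The question of whether Libramed shifted these outputs was asked at each time, over both times and as an interaction, that is, the Libramed change over time minus the vehicle change. None of the 6 genes passed the adjusted threshold in limma in these 4 comparisons. Unadjusted p under 0.05 was reached by 1 gene at ZT0, 0 at ZT12, 2 in the interaction and 1 over both times. Of all tested genes 0% passed the adjustment at ZT0, 0% at ZT12, 0% in the interaction and 0% over both times, with 905, 661, 650 and 1025 genes under an unadjusted p of 0.05. In Cyber-T, a Bayesian test that borrows variance from genes of similar level, 0 of the 6 genes passed at ZT0, 0 at ZT12, 2 in the interaction and 0 over both times. Of all 9806 genes, Cyber-T called 30 higher and 39 lower with Libramed at ZT0 and 15 and 8 at ZT12. It called 46 upward and 31 downward in the interaction, and 43 and 36 over both times. The livers of the 2 treatments overlapped for all 6 genes at each time, where 15.1% of all genes did not overlap at ZT0 and 13.1% at ZT12. With 3 mice against 3, the exact permutation test cannot give a two-sided p under 0.1.

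At ZT0, Cdkn1a was lower with Libramed by a log2 difference of −1.06 (95% interval −1.997 to −0.129, limma adjusted p = 0.521, exact permutation p = 0.2). The difference moved to −1.57 without vehicle ZT0 replicate 1 and to −0.77 without replicate 2 of that group. Ccrn4l differed by −0.79 (−1.65 to 0.07, limma adjusted p = 0.585) and was at −1.17 to −0.37 with single livers left out. Wee1 (0.26), Upp2 (0.28), Usp2 (−0.15) and Spon2 (−0.01) differed by less. Kupffer cell markers, 9 genes, summed to 68.1 to 78.8 FPKM in vehicle and 39.2 to 63.4 FPKM in Libramed livers at this time. All 6 of those tested were lower with Libramed, by a median of −0.49 on the log2 scale, none passed the adjustment and none was listed at 0. Their part in the Cdkn1a and Ccrn4l values was not tested.

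At ZT12, Ccrn4l differed by 0.88 (95% interval −0.20 to 1.96) and Cdkn1a by 0.47 (−0.07 to 1.02), both with a limma adjusted p of 0.729. Upp2 differed by 0.37 (−0.09 to 0.83), Usp2 by 0.32 (−0.23 to 0.87), Spon2 by −0.43 (−0.95 to 0.09) and Wee1 by −0.07 (−0.32 to 0.18). Each interval included 0. Single livers moved 5 of these differences, all but that of Wee1, by more than 1.5 times without a change of sign, and that of Wee1 to between −0.15 and 0.00. Without Libramed ZT12 replicate 3, they were 0.49 for Ccrn4l, 0.15 for Upp2, 0.13 for Usp2 and −0.17 for Spon2. Without Libramed ZT12 replicate 1, Usp2 was at 0.54. Cdkn1a was at 0.30 without vehicle ZT12 replicate 2 and at 0.73 without vehicle ZT12 replicate 3, and Usp2 was at 0.20 without vehicle ZT12 replicate 1 and at 0.48 without vehicle ZT12 replicate 3. For Wee1 the 95% interval over all livers excluded a difference above 0.32 in size on this scale, whereas for Ccrn4l differences up to 1.96 lay within it. Adipocyte markers, 4 genes, summed to 11.5 to 42.8 FPKM in vehicle ZT12 livers against 2.74 to 11.2 FPKM in Libramed ZT12 livers, nearly all of it from Cfd, with Lep listed at 0 and Adipoq and Plin1 at most 0.0493 FPKM. Their part in these values was not tested.

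**Figure D3:**
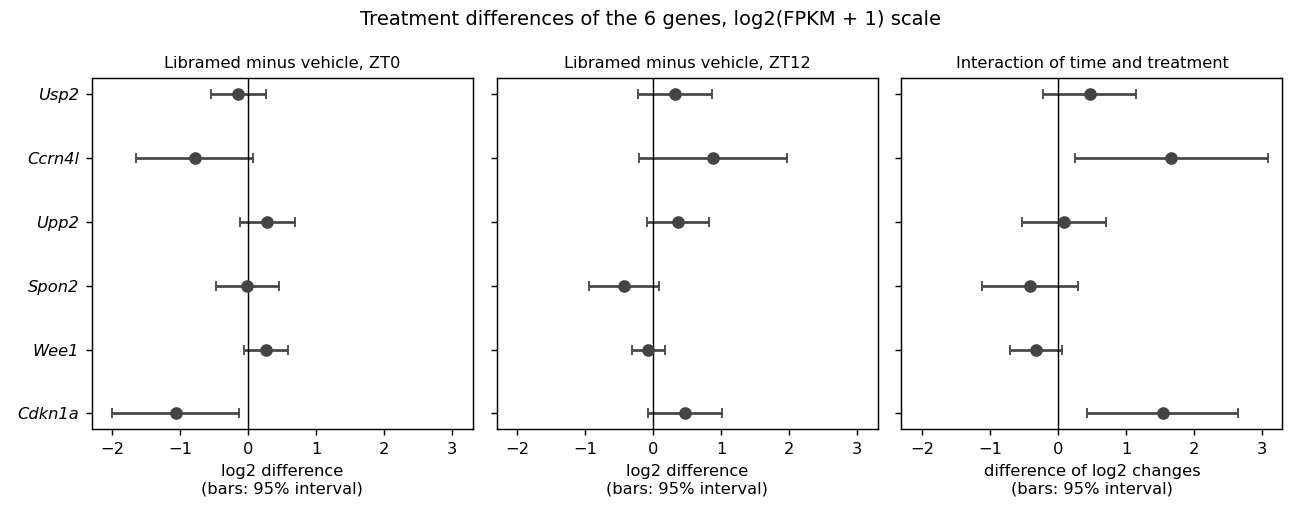
Libramed minus vehicle differences of each gene at ZT0 and at ZT12, and the interaction of time and treatment, on the log2(FPKM + 1) scale with 95% intervals from limma. The interval excludes 0 for Cdkn1a at ZT0 (−1.997 to −0.129) and for Ccrn4l (0.25 to 3.09) and Cdkn1a (0.42 to 2.65) in the interaction, all before adjustment over genes.

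The interaction compares the amplitudes themselves. It is built from the same livers and the same changes over time on which the genes had been chosen, so that it is not fully independent of that choice. For Cdkn1a it was 1.54 (95% interval 0.42 to 2.65, limma adjusted p = 0.618, exact permutation p = 0.035 over 400 arrangements), and for Ccrn4l 1.67 (0.25 to 3.09, limma adjusted p = 0.691, exact permutation p = 0.045). In Cyber-T the adjusted p was 0.00679 for Cdkn1a and 0.0252 for Ccrn4l. Over the alternatives, the adjusted p ran from 0.00679 to 0.844 for Cdkn1a and from 0.0252 to 0.873 for Ccrn4l. The interaction was 0.47 (−0.21 to 1.15, exact permutation p = 0.21) for Usp2, −0.33 (−0.71 to 0.05, exact permutation p = 0.09) for Wee1, −0.42 (−1.12 to 0.29, exact permutation p = 0.305) for Spon2 and 0.09 (−0.53 to 0.71, exact permutation p = 0.77) for Upp2. These exact values are raw, for 6 genes in this comparison, and refer to no treatment effect at either time, since labels were permuted within times. The ratio of the Libramed amplitude to the vehicle amplitude was 4.52 for Ccrn4l, 1.76 for Usp2, 1.07 for Upp2 and 0.588 for Wee1. For Spon2, with the amplitude taken as ZT0 over ZT12, it was 1.61. No such ratio is given for Cdkn1a, whose changes of 2.22 times toward ZT0 with vehicle and 2.31 times toward ZT12 with Libramed were alike in size and opposite in direction.

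Over both times, Upp2 was higher with Libramed by 0.33 (95% interval 0.02 to 0.63, limma adjusted p = 0.465, exact permutation p = 0.05 over 400 arrangements). Its mean was 1.24 times the vehicle mean at ZT0 and 1.33 times at ZT12. The other genes differed by between −0.29 (Cdkn1a) and 0.10 (Wee1), and each of their intervals included 0.

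The order of the mice within a group was shared by some of the genes. In both ZT12 groups replicate 3 was the highest and replicate 1 the lowest liver for Usp2 and for Ccrn4l, as also for Upp2 with Libramed. Libramed ZT12 replicate 3 lay 0.39 above its group mean for Usp2, 0.79 above for Ccrn4l and 0.44 above for Upp2 on the log2 scale, and 0.51 under it for Spon2 (a deviation of −0.51). Libramed ZT12 replicate 1 deviated by −0.44, −0.85 and −0.36 for the first 3 genes and by 0.26 for Spon2. Within its group, replicate 3 was thus farthest from the ZT0 level for 4 of the genes. At ZT0 with vehicle, replicate 2 was the highest for Usp2, Ccrn4l, Upp2 and Cdkn1a, with deviations of 0.34, 0.84, 0.16 and 0.59. Wee1 followed another order there, falling from 0.668 in replicate 1 to 0.508 in replicate 2 and 0.248 in replicate 3. Dbp had that order in the same livers (17.9, 6.97 and 1.85 FPKM), as did Ciart (0.924, 0.544 and 0.0782 FPKM), while Arntl had the reverse (4.95, 7.18 and 9.99 FPKM). Whether these livers differed in clock phase was not tested.

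**Figure D4:**
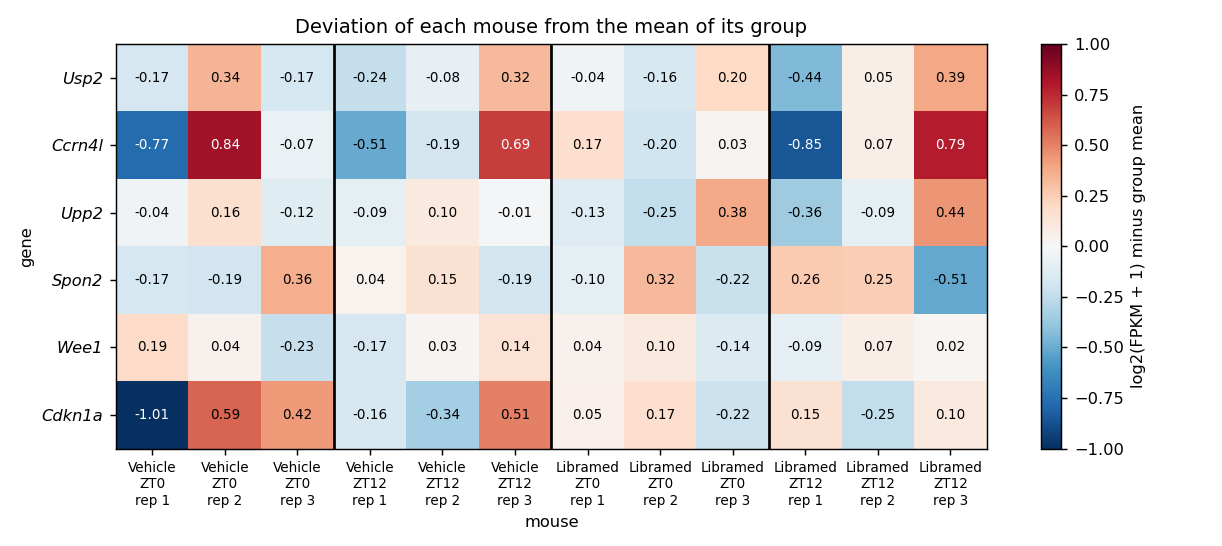
Deviation of each mouse from the mean of its group on the log2(FPKM + 1) scale, by gene (rows) and mouse (columns, with lines between groups of 3). Libramed ZT12 replicate 3 is above its group for Usp2 (0.39), Ccrn4l (0.79) and Upp2 (0.44) and below it for Spon2 (−0.51).

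For each gene, the 3 nearest profiles among the 9806 genes were found by the mean absolute difference of centred log2(FPKM + 1) values over the 12 livers, where 0 would be an identical shape. The nearest to Upp2 was Ciart (0.24), which encodes a repressor of CLOCK and BMAL1, followed by Lpin1 (0.31), a phosphatidate phosphatase, and Mfsd2a (0.42), a lipid transporter. Ciart was also nearest to Usp2 (0.36), followed by Tsku (0.52), a secreted protein made in liver, and Lpin1 (0.54). Ccrn4l was nearest to Tsku (0.45), the ganglioside-synthesis enzyme St3gal5 (0.54) and 1810011O10Rik (0.58). Spon2 was nearest to Atf5 (0.34), a stress-responsive transcription factor, Gdf15 (0.37), a stress-induced secreted factor, and Tubb2a (0.41), a tubulin. Wee1 was nearest to Akr1c19 (0.17), the growth factor gene Nrg4 (0.18) and Tef (0.18), a D-box activator related to Dbp. In vehicle livers Tef averaged 18.1 FPKM at ZT0 and 47.9 FPKM at ZT12, and in Libramed livers 21.1 and 49.5 FPKM. Cdkn1a was nearest to Ablim3 (0.31), Atxn1 (0.32) and Prox1 (0.32). In vehicle livers Ablim3 averaged 6.76 FPKM at ZT0 and 7.01 FPKM at ZT12, and in Libramed livers 4.99 and 7.21 FPKM. It was higher at ZT12 with Libramed but lacked the higher ZT0 mean that Cdkn1a had with vehicle. Since Ablim3 was picked for its nearness over these same livers, the likeness is no separate result.

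The regulators of the clock moved widely between the times. Of 19 listed, 17 were tested, and 9 rose and 4 fell at ZT12 with vehicle, with a median log2 change of 0.78, against 11 and 4 with Libramed and a median of 0.84. Of all tested genes, 5.62% rose and 4.78% fell with vehicle, and 7% rose and 5.36% fell with Libramed. The median change of all tested genes was 0.01 in either treatment. Among the activators and repressors that rose, Dbp changed by 3.05 (SE 0.61) and Ciart by 2.82 (SE 0.26) with vehicle, and by 1.44 (SE 0.22) and 3.27 (SE 0.18) with Libramed. Per3 rose by 2.07 in both. Nr1d1, which encodes REV-ERBα, fell by 1.97 with vehicle and by 2.73 with Libramed, and Arntl fell by 1.64 and by 1.35. The Usp2 change of 3.39 with vehicle is not ranked against these regulators, since Usp2 had been picked on this contrast. At ZT0 Dbp differed between treatments by 1.58 (limma adjusted p = 0.526), and its interaction was −1.61 (adjusted p = 0.743), opposite in sign to those of Cdkn1a and Ccrn4l. Dbp did not stand for the list, since 11 of the 17 regulators tested had a positive interaction, with a list median of 0.08. No regulator passed the adjustment in a treatment comparison.

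The families and pathways in which the 6 genes act had not been chosen for a change over time, so that they cannot be ranked against the 6 genes. Their calls are read against the 10.4% of all genes called with vehicle and the 12.4% with Libramed, and nothing particular to a list is drawn from them. Of 16 other ubiquitin-specific proteases tested, 1 rose at ZT12 with vehicle (Usp28, by 0.49) and 0 with Libramed in limma, with medians of 0.04 and 0.01, and 0 fell. Of 10 poly(A) deadenylases, Pan2 fell with vehicle (by 0.48) and Angel2 rose with Libramed (0.37), with medians of −0.05 and −0.07. Of 14 genes of uridine and pyrimidine salvage and breakdown tested, 2 rose with vehicle, Tk1 (thymidine kinase, 1.07) and Dpys (dihydropyrimidinase, 0.65), and 1 fell, Cad (−0.56), which starts pyrimidine synthesis. With Libramed, Tk1 (1.46) and Uck1 (uridine-cytidine kinase, 0.73) rose and 0 fell, and the list medians were 0.14 and 0.16. Upp1, the other uridine phosphorylase, changed by 0.25 (limma adjusted p = 0.482) with vehicle and 0.05 (adjusted p = 0.828) with Libramed, at a mean of 1.85 FPKM where Upp2 averaged 140 FPKM. The thrombospondin-repeat list had 12 genes in the table and only Rspo3, an activator of Wnt signalling, was tested. It fell at ZT12 by 0.62 with vehicle and by 0.75 with Libramed. Spon1, the closest relative of Spon2 by name, was at most 0.151 FPKM in any liver.

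**Figure D5:**
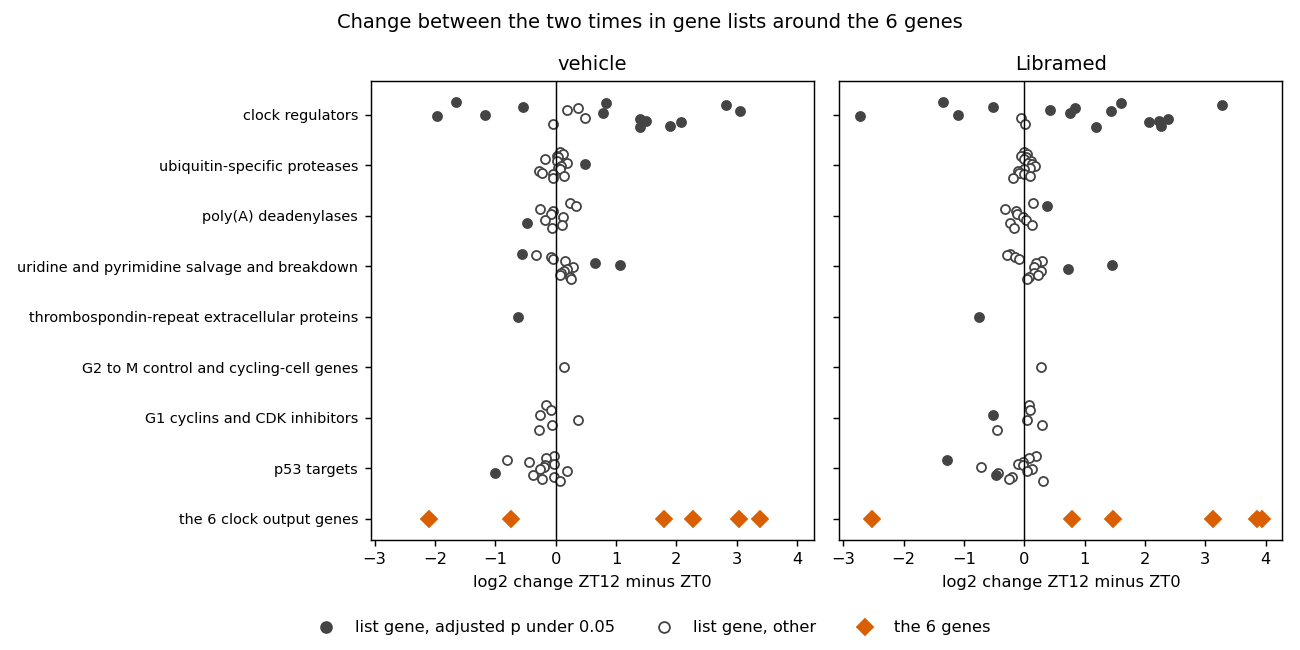
Log2 change from ZT0 to ZT12 of single genes in lists around the 6 genes (rows), with vehicle at left and Libramed at right, filled where the limma adjusted p was under 0.05, and of the 6 genes themselves (diamonds). The clock regulators spread from −1.97 to 3.05 with vehicle, while most protease, deadenylase and cell-cycle genes lie near 0.

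Wee1 and Cdkn1a are regulators of the cell cycle, and the genes of cycling cells were scarcely measured in these livers. Of 15 genes of G2 to M control and cycling cells, 1 was tested and 0 passed at either treatment, and the list summed to between 6.92 and 9.75 FPKM in any liver. Cdk1, the target of WEE1, was between 0.0818 and 0.715 FPKM, and Mki67, a marker of proliferation, at most 0.0925 FPKM. Among 6 tested G1 cyclins and CDK inhibitors, 0 passed with vehicle, and Cdkn1b, which encodes p27, fell at ZT12 by 0.53 with Libramed. Its direction was opposite to that of Cdkn1a in the same livers.

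Of 18 other genes listed for the p53 pathway, namely p53 targets and Trp53, which encodes p53 itself, 14 were tested. At ZT12, Plk2 fell with vehicle (−1.01), and Bbc3 (−1.28) and Sesn1 (−0.47) fell with Libramed, while 0 rose in either treatment. These 1 and 2 of 14 stand beside 10.4% and 12.4% of all genes called, and are no result about the list. The list medians were −0.18 and −0.06. The summed level of the list was 240 to 261 FPKM in vehicle and 234 to 247 FPKM in Libramed livers at ZT0, and 223 to 235 and 216 to 244 FPKM at ZT12, so the treatments overlapped at both times. Mdm2, which encodes the ubiquitin ligase of p53, was 8.71, 9.76 and 9.31 FPKM in vehicle livers at ZT0 and 7.14, 7.52 and 7.13 FPKM in Libramed livers. Its difference was −0.31 (95% interval −0.50 to −0.12, limma adjusted p = 0.436) and its interaction 0.40 (0.19 to 0.60, limma adjusted p = 0.519). Both have the sign of the Cdkn1a values and a smaller size. Ccng1, another target, had an interaction of −0.08 (−0.39 to 0.23, limma adjusted p = 0.956). None of the listed genes passed the adjustment between treatments, and the median interaction of the list was 0.06 against 0.00 over all genes.

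Some measures of the libraries differed between the treatments. The depth of the libraries relative to each other, read from the spacing of low values, lay between 0.707 and 1.27. Their FPKM summed to 634683 to 759355. The 10 highest genes held 23.9% to 25.8% with vehicle and 25% to 28.7% with Libramed. Hepatocyte markers (7 genes) summed at ZT0 to 40160 to 44190 FPKM with vehicle and to 45540 to 55450 FPKM with Libramed, without overlap. Apoa1 was the largest part of these sums, with ZT0 means of 22770 FPKM with vehicle and 29390 FPKM with Libramed. The markers did not move as a set, since 4 of 7 were higher with Libramed at ZT0, while Fgb differed by −0.33 on the log2 scale. At ZT12 the sums were 37620 to 42260 and 41580 to 49680 FPKM. None of these markers passed the adjustment between treatments at either time, and their part in the values of the 6 genes was not tested. Alb is listed at 0 in every liver, as a failed estimate would be. No read totals were used, so no counting error can be given, and the spread of 3 mice sets the precision. Of 6 pancreas markers, 4 were listed at 0 in all livers, and lymphocyte markers (6 genes) summed to at most 2.31 FPKM.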

How the data were processed

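Liver RNA of 12 mice (3 per group, grouped by their labels as separate biological replicates) was measured by RNA-seq. The values deposited by the authors are FPKM, in 1 table of genes by mice. The methods describe single-end reads aligned with ELAND to mm10 and known splice junctions, unique matches and a unit called RPKM, whereas the submitters' processing notes name TopHat and Cuffnorm and the labels another library kit, and which of these made the table is not given in the sources used here. Of 24138 lines, 289 repeated a symbol, and of repeated symbols the line of highest mean was used. Columns of other samples left out numbered 0.

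Values were analysed as log2(FPKM + 1) for the 9806 genes whose mean reached 1 FPKM, in limma 3.58.1 (R 4.3.3; lmFit and eBayes, trend on), two-sided, with Benjamini-Hochberg adjustment over all genes tested. Comparisons within a treatment or time used the 6 livers concerned, while the interaction and the difference over both times used all 12. The study names Cyber-T for its RNA-seq comparisons without its settings, and it was run as an alternative (window 101, prior weight 10) beside a pseudocount of 0.1, no minimum, a minimum of 5 FPKM, no trend, 2 normalizations, a 12-sample fit, a replicate block and omission of single livers. Exact permutation tests used all 20 arrangements of 3 against 3, or 400 within times. The fits were tested on simulated data. The 6 genes and all lists were chosen with earlier results of these data known. Named genes were the 6, their 3 nearest profiles, up to 4 called genes per list and Nr1d1, Dbp, Arntl, Upp1, Spon1, Cdk1, Mki67, Mdm2 and Ccng1, to which markers and overlapping genes were added after their values were seen. Promoters came from the RefSeq table, which held 4 of the 6 genes (not Wee1 or Spon2).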

Additional observations from a re-analysis of the deposited data

Results flagged for a closer look

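The exact permutation p of the interaction was under 0.05 for 2 of the 6 genes. Treatment labels were permuted within each time, so a small p speaks against no treatment effect at either time. It does not by itself show that the change over time differed. For Ccrn4l the log2 change was larger with Libramed by 1.67 (exact permutation p = 0.045, limma adjusted p = 0.691). For Cdkn1a it was larger by 1.54 (exact permutation p = 0.035, limma adjusted p = 0.618), with opposite directions in the 2 treatments. Both values are raw among 6 genes tested, and both genes had been picked on changes that enter the interaction.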

How the results depend on the processing

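The replicate numbers did not pair the mice, since the deviations of same-numbered livers correlated between −0.279 and 0.257 over 12 pairs and 2 livers correlated best with their own number. With the replicate number as a block, 138 genes passed upward and 141 downward with vehicle (551 and 469 without it) and 416 and 293 with Libramed (686 and 526 without it), and the change of Ccrn4l with vehicle and that of Cdkn1a with Libramed no longer passed the threshold. Under the block 4 of the 6 genes passed with vehicle, 5 with Libramed and 0 in each treatment comparison. Testing without a minimum FPKM gave 259 and 256 genes with vehicle and 367 and 272 with Libramed, with the same losses of Ccrn4l and Cdkn1a, and 1 fit over the 12 samples gave 805 and 734 with vehicle and lost Cdkn1a with Libramed. Cyber-T called 2 of the 6 genes in the interaction, where limma called 0, and over all genes 46 higher and 31 lower, with 30 and 39 at ZT0, 15 and 8 at ZT12 and 43 and 36 over both times. Wee1 and Cdkn1a could not be tested at a minimum of 5 FPKM. With single livers left out, the members called ranged from 4 to 5 with vehicle and from 5 to 6 with Libramed and stayed at 0 between treatments. Over all genes, the calls between the times were fewest without ZT12 replicate 2 of the treatment concerned. They were then 120 higher and 106 lower with vehicle, and 304 and 231 with Libramed. The 6 genes had been picked on the change between the times, so their counts say nothing about its stability.

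Signs turned for 6 small differences. Spon2 at ZT0 was 0.0129 under median-ratio scaling and 0.00906 under quantile normalization, and −0.18 to 0.17 without single livers. With a pseudocount of 0.1 the difference over both times was −0.0378 for Ccrn4l and −0.00404 for Usp2, and without single livers −0.15 to 0.26 and −0.0107 to 0.20. Leaving out livers also spread Usp2 at ZT0 from −0.25 to 0.0222, Wee1 at ZT12 from −0.15 to 0.00251 and the interaction of Upp2 from −0.13 to 0.28. Of 588 recomputed values for single genes, 559 kept direction and side of the threshold, 15 reversed, 11 lost the threshold and 3 gained it. The cause was not tested. Depth is unknown in absolute terms, which limits Usp2 and Wee1 at ZT0 most.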
